A study of Mus musculus with 18 samples.

Results

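Neat1, Malat1, Gas5, Snhg1, Snhg12, Snhg15, H19 and Meg3 are 8 long noncoding RNAs (lncRNAs) that have been linked to cell stress, and they were followed here in mouse liver after ischemia-reperfusion (IR) and after sham surgery. They were found by matching gene identifiers to these symbols in GENCODE vM21, and all 8 were among the 47729 genes of the deposited table. In IR the liver is deprived of blood for a time and then perfused again. The labels describe 18 liver samples: 3 after IR from each of the genotypes Il22-/-, Il22bp-/- and Wt, and 3 after sham surgery from each. Il22-/- mice lack the cytokine IL-22, and Il22bp-/- mice lack IL-22BP, its soluble binding protein, which is encoded by Il22ra2. Strain, age, sex and the time of reperfusion are not stated in the labels used here. Its columns, 9 with IR and 9 with W in the header, carry numbers that match no sample title. W was read as sham by elimination, because only 6 samples are wild type and 9 sham samples remain once the 9 IR columns are placed. No column carries a genotype, so each group below mixes the 3 genotypes, and differences between genotypes were not analysed here.

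LncRNAs act as RNA and are not translated into a functional protein. Neat1 builds paraspeckles, nuclear bodies that hold RNA and RNA-binding proteins and enlarge when cells are stressed, and Malat1 collects in nuclear speckles, where splicing factors are stored. Gas5, Snhg1, Snhg12 and Snhg15 are host genes of small nucleolar RNAs (snoRNAs). The snoRNAs are cut from their introns and guide the modification of ribosomal and other RNAs, while the spliced exons form a short-lived RNA. For Gas5 and several other hosts in mammalian cells, that RNA begins with a run of pyrimidines, as do the mRNAs of ribosomal proteins, and is degraded by nonsense-mediated decay. H19 and Meg3 are imprinted lncRNAs expressed from the maternal allele next to Igf2 and Dlk1. H19 is abundant in fetal liver, is largely silenced after birth and is the precursor of miR-675.

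The start sites of the snoRNA hosts are shown first, because the pyrimidine run is the sequence feature for which Gas5 is best known. RefSeq promoter sequences on build GRCm38.p6 were at hand for 6 of the 8 lncRNAs, as 8 windows of 250 bases before and 50 bases after a start. Neat1 and H19 had no entry. A pyrimidine run was defined as at least 5 consecutive C or T that open with C, the first base lying within 5 bases of the start on either side, read on the strand of the gene. Each line runs 5′ to 3′ from 60 bases before the start to 30 bases after it, with the longest run at the start in capitals:
Gas5: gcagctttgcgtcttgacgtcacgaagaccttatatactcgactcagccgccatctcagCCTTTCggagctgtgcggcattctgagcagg
Snhg12: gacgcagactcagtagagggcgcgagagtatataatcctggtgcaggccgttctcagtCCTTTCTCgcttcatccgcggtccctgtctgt
Snhg1: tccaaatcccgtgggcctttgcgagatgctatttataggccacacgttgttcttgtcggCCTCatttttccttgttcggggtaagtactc
Snhg15: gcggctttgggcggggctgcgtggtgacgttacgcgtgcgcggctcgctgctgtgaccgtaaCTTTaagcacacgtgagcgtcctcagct
These stretches lie at chr1:161035106-161035195 on the plus strand (Gas5), chr4:132308618-132308707 on the plus strand (Snhg12), chr19:8723427-8723516 on the plus strand (Snhg1) and chr11:6528731-6528820 on the minus strand (Snhg15). Gas5 has a run of 6 bases and Snhg12 a run of 8, which meet the definition. Snhg1 and Snhg15 have 4 each and do not. A window of Meg3 held a run of 5, so 3 of the 6 lncRNAs with a window met the definition, as did 21.2% of all 27025 genes with a RefSeq window.

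The same windows were searched on both strands for TGACGTCA, the palindromic cyclic AMP response element bound by CREB and ATF family factors, and for CACGTG, a palindromic E-box. TGACGTCA was present at Gas5, Snhg15 and Meg3, which are 3 of the 6, and in 2.03% of all genes with a window. It is shown in capitals with 20 bases on either side:
Gas5: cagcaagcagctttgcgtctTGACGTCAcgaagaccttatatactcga
Snhg15: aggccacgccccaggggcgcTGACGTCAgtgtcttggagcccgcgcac
Meg3: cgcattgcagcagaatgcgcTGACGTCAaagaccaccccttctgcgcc
The 3 stretches lie at chr1:161035100-161035147 (plus strand), chr11:6528821-6528868 (minus strand) and chr12:109540919-109540966 (plus strand). CACGTG was found at Snhg15 alone among the 6, and in 8.09% of all genes with a window. These are matches of letters, and no binding was measured.

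The values below are normalised counts, meaning read counts that the authors divided by a DESeq2 size factor for each library. Differences were tested with limma on log2(normalised count + 1) over the 12686 genes that averaged at least 10, with Benjamini-Hochberg adjustment over all of them and a threshold of 0.05. Libraries held 10176617 to 12558179 counted reads in IR and 10716890 to 12763837 in sham. All 8 lncRNAs passed the filter, but H19 only through its sham level, so its values are described below and left out of the counts. Of the 7 that averaged at least 10 in both surgeries, 5 passed the threshold, 3 of them higher in IR (Neat1, Malat1 and Snhg15) and 2 lower (Gas5 and Snhg1). That share is near the 75.1% that passed among the 11839 genes averaging at least 10 in both surgeries, 37.5% in each direction, so it does not set them apart. Over all tested genes the shares were 76.0%, 38.3% higher and 37.7% lower. The IR and sham values did not overlap for 2 of the 7, Neat1 and Gas5, against 40.2% of all tested genes, 19.9% higher and 20.3% lower. Log2 differences had a median of 0.58 over the 7 and of 0.02 over all tested genes.

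Some libraries stood apart in ways the labels do not describe. Reads of the Y-linked genes Ddx3y, Eif2s3y, Kdm5d and Uty summed to between 444 and 1034 normalised counts in 6 of the 9 IR libraries (IR1, IR2, IR4, IR5, IR7 and IR8) and to at most 2.07 in the other 12 libraries. All 9 sham libraries are among those 12, so surgery and Y-linked reads are partly confounded in the main comparison. The difference of each lncRNA is therefore also given from the 3 IR libraries without Y-linked reads against the 9 sham libraries. In that smaller comparison 68.4% of tested genes passed, 34.1% as higher and 34.2% as lower. IR5 and IR8 held Xist reads as well, at 542 and 964 normalised counts beside Y-linked sums of 745 and 444, and IR8 was the lowest IR library for Malat1 and the highest for Snhg12, Snhg15 and Meg3. Il22 was listed at 0 in every library. Il22ra2 lay between 29.95 and 55.96 in 6 libraries, 3 of each surgery, and at most at 1.02 in the other 12, and libraries were not assigned to genotypes from it. The summed hepatocyte markers, at 569300 to 918200 in IR and 1994000 to 2417000 in sham, were lower in every IR library. Alb was by far the largest of them, with a median of 495200 in IR and 1797000 in sham. All 8 hepatocyte markers passed as lower, and 7 did without the IR libraries holding Y-linked reads. Neutrophil markers, 3 of which reached the filter only through IR, summed to 308 to 3967 in IR and 50.7 to 120 in sham. Cholangiocyte markers summed to 850 to 14610 in IR, against 373 to 744 in sham. Spp1 was the largest of them, with a median of 3005 in IR and 373 in sham. Of these 5, 4 passed as higher, Krt7 did not (limma adjusted p = 0.0959), and only Sox9 did not overlap between surgeries. Kupffer cell markers summed to 1862 to 3609 in IR, against 5411 to 7252 in sham. Of these 6, 5 passed as lower and Marco as higher, at a log2 difference of 1.20. Over all tested genes 38.3% passed as higher, 37.7% as lower, and 40.2% did not overlap. No marker was at 0 in all libraries. In bulk tissue, fewer cells of a type and less RNA per cell cannot be told apart, and the part of these marker sets in the results below was not tested.

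**Figure D1:**
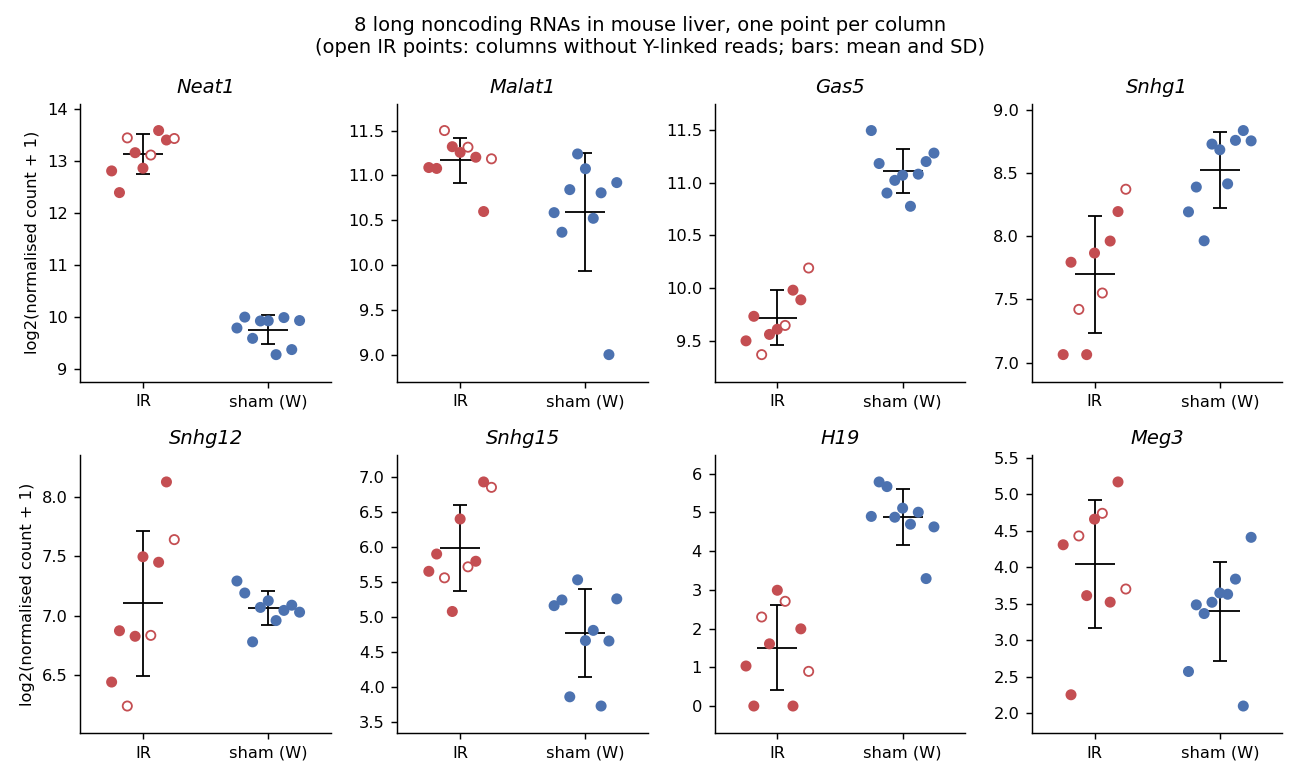
Normalised counts of the 8 lncRNAs on a log2(count + 1) scale, 1 point per library, with IR on the left and sham (headed W) on the right of each panel. Bars give the mean and SD of 9 libraries, and open red points are the 3 IR libraries without Y-linked reads. Neat1 (up) and Gas5 (down) separate the surgeries completely, as do 40.2% of all tested genes. H19 (down), which reached the filter through sham alone, also separates them, and the other 5 overlap.

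Neat1 showed the widest rise of the 8. Neat1 (ENSMUSG00000092274) is a lincRNA of chromosome 19, at 5824708 to 5845478 on the minus strand of GRCm38. In IR it had 7151, 5358, 11103, 9116, 7417, 8835, 12242, 10793 and 11010.0 normalised counts in libraries IR1 to IR9, against 882, 1020.1, 768, 969, 971, 619, 1014, 662 and 974 in sham libraries W1 to W9. The lowest IR library, IR2, was far above the highest sham library, W2, so the groups did not overlap. Means were 9225 ± 2263 in IR and 875 ± 155 in sham (SD, n = 9 each), a ratio of 10.5. The log2 difference was 3.38 (SE 0.15, 95% interval 3.07 to 3.68, limma adjusted p = 1.8e-13), and 1.14% of tested genes had a higher one. IR libraries with Y-linked reads spanned 5358 to 12242 and the 3 without spanned 8835 to 11103, which gave a log2 difference from sham of 3.57 (adjusted p = 2.6e-10).

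Malat1, which lies next to Neat1 on the same strand, moved far less. Malat1 (ENSMUSG00000092341) spans 5795690 to 5802672 on the minus strand of chromosome 19. It ranged from 1549 through a median of 2357 to 2897 in IR and from 512 through 1790 to 2418 in sham. Only 4 IR libraries exceeded the highest sham library, and the lowest sham value, in W8, stood well under the next at 1320.3. Mean counts were 2336 ± 370 in IR and 1664 ± 551 in sham (SD, n = 9 each). The log2 difference was 0.58 (SE 0.21, limma adjusted p = 0.0195), and it was 0.38 without W8 (adjusted p = 0.011), when 75.9% of tested genes passed, 38.2% as higher. With the 3 IR libraries free of Y-linked reads it was 0.74 but no longer passed (adjusted p = 0.0575), and edgeR on the recovered reads without W1 also lost the call (0.46, adjusted p = 0.0553).

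Set against each other within a library, the pair separated the surgeries, as Neat1 did alone. Because Malat1 moved little, the ratio largely restates the difference of Neat1. The ratio of Neat1 to Malat1 ran from 2.48 through a median of 3.57 to 6.97 in IR and from 0.401 through 0.503 to 1.29 in sham. Every IR library lay above every sham library, and W8, the library low in Malat1, was the single sham library above 1. The mean log2 ratio was 1.96 ± 0.45 in IR and -0.84 ± 0.54 in sham (SD, n = 9 each), a difference of 2.80 (exact two-sided permutation test over all splits into 9 and 9, p = 4.11e-05, the smallest it can give). Across the 9 IR libraries Neat1 and Malat1 were barely correlated (Pearson r = 0.05 and Spearman rho = 0.33, exact permutation p = 0.894 and 0.385), and r was 0.58 without IR5 and IR8. In sham r was 0.58 and rho 0.23 (exact permutation p = 0.0897 and 0.552), and r was -0.02 without W6 and W8.

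**Figure D2:**
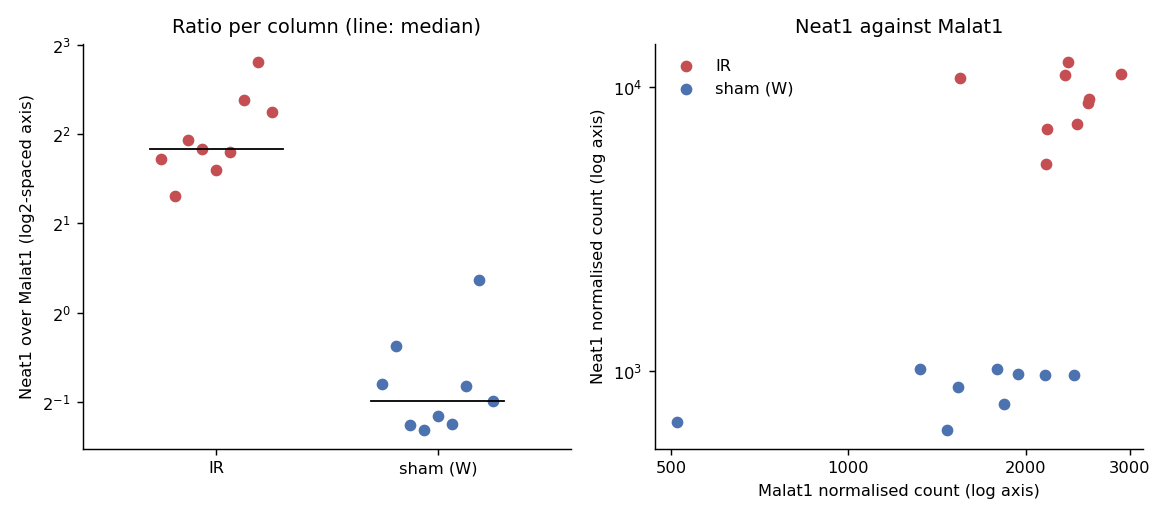
Left, Neat1 counts divided by Malat1 counts per library on a log2-spaced axis, IR left of sham, with the median as a line. Right, normalised counts of both genes on log axes. IR ratios run from 2.48 to 6.97 and sham ratios from 0.401 to 1.29, and the groups part along the Neat1 axis while their Malat1 values overlap.

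A neighbour of this pair and proteins of the nuclear bodies were examined next. Frmd8, the next protein-coding gene 4224 bases away from Neat1, averaged 424 ± 102 in IR and 207 ± 61.4 in sham (SD, n = 9 each), a log2 difference of 1.05 (limma adjusted p = 8.8e-06), and of 0.92 without the IR libraries holding Y-linked reads. Of 14 paraspeckle proteins, 7 passed as higher and 4 as lower in IR, with a median log2 difference of 0.35. These 11 of 14 are near the 76.0% of all tested genes that passed, and 8 and 4 passed without the IR libraries holding Y-linked reads. Rbm14, which is needed for paraspeckle assembly, rose by 1.14 and Cpsf7 by 1.00, whereas Nudt21 fell by 0.90 and Hnrnpk by 0.63. The core paraspeckle proteins split, with Sfpq at 0.80 and Pspc1 at 0.81 above sham and Nono at -0.41 below it. Of 12 speckle and SR splicing proteins, 7 passed as higher, led by the speckle scaffold Srrm2 at 1.33, and 3 as lower, led by Srsf5 at -0.68, with a median of 0.32. These counts were 7 and 2 without the IR libraries holding Y-linked reads, and shares of all tested genes were 38.3% higher and 37.7% lower.

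Gas5, the most abundant of the 8 per kilobase of annotated exon in sham, fell in every IR library. Gas5 (ENSMUSG00000053332) is annotated at 161034422 to 161038539 on the plus strand of chromosome 1. It had 724, 850, 661, 755, 781, 801, 1010.0, 948 and 1168 normalised counts in IR1 to IR9, against 2884, 2322, 1913, 2079, 2151, 1753, 2165, 2352 and 2487 in W1 to W9. The highest IR library stayed below the lowest sham library. Means were 855 ± 160 in IR and 2234 ± 331 in sham (SD, n = 9 each), so that sham was 2.61 times IR. The log2 difference was -1.39 (SE 0.11, 95% interval -1.62 to -1.16, limma adjusted p = 5.2e-10) and -1.38 without the IR libraries that held Y-linked reads. Zbtb37 overlaps Gas5 on the opposite strand, but their annotated exons do not overlap. Whether counting used strand is not given in the sources used here. The values of Zbtb37 were 104 ± 52.3 in IR and 112 ± 24.6 in sham, with a log2 difference of -0.28 that did not pass (limma adjusted p = 0.376).

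Snhg1 also fell, with some overlap. Snhg1 (ENSMUSG00000108414), at 8723475 to 8726443 on the plus strand of chromosome 19, ranged from 133 through 221 to 330 in IR and from 249 through 410 to 455 in sham. Of the 9 IR libraries, 7 were below the lowest sham library, and IR8 and IR9 were not. Means were 216 ± 68 in IR and 374 ± 72.5 in sham (SD, n = 9 each), with a log2 difference of -0.82 (SE 0.17, limma adjusted p = 0.000197), and of -0.74 without the IR libraries holding Y-linked reads (adjusted p = 0.00493). Its divergent neighbour Slc3a2, the heavy chain shared by several amino acid transporters, lies 106 bases away and moved the other way. Slc3a2 averaged 1407 ± 477 in IR and 343 ± 36 in sham, a log2 difference of 1.97 (adjusted p = 3.1e-10), and of 1.95 without the IR libraries holding Y-linked reads.

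Snhg12 did not pass the test, and its values were spread more widely in IR. Snhg12 (ENSMUSG00000086290), at 132308623 to 132311024 on the plus strand of chromosome 4, ranged from 74.4 through 116 to 278 in IR and from 109 through 133 to 156 in sham. Of the IR libraries, 4 were above all sham libraries and 2 below all of them. The coefficient of variation was 44.1% in IR and 9.88% in sham, a difference that was not tested. The difference of mean log2 values was 0.04 (SE 0.19, 95% interval -0.37 to 0.44, limma adjusted p = 0.863), and it was -0.16 both without the IR libraries holding Y-linked reads and without IR5 and IR8. Trnau1ap, 739 bases away and involved in selenoprotein synthesis, was lower in IR by 0.82 on the log2 scale (259 ± 29.3 in IR and 460 ± 73.4 in sham).

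Snhg15 rose. Snhg15 (ENSMUSG00000085156) lies at 6525591 to 6528760 on the minus strand of chromosome 11, and ranged from 32.7 through 54.4 to 121 in IR and from 12.2 through 26.9 to 45.1 in sham. All but 1 IR library, IR4, were above the highest sham library. Means were 67.8 ± 31.2 in IR and 28.3 ± 11.1 in sham (SD, n = 9 each), with a log2 difference of 1.22 (SE 0.27, limma adjusted p = 0.000405), and of 1.28 without the IR libraries holding Y-linked reads. These levels rest on 11 to 162 reads per library.

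The snoRNAs themselves could not be followed. The annotation places 24 snoRNA genes inside these hosts, 10 in Gas5, 8 in Snhg1, 5 in Snhg12 and 1 in Snhg15. All were listed at 0 in every library, as were the other small RNA features inside the 8 lncRNAs, which make 35 in all. The 24 snoRNA genes overlap annotated exons of their hosts on the same strand, and the read counter is not stated. Whether reads from them were dropped or counted with the host was not tested.

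The other lncRNAs that host snoRNAs in the list were also divided. Of 11 tested, 7 passed as lower, 3 as higher and 1, Snhg5, did not pass (-0.41, limma adjusted p = 0.0538), with a median log2 difference of -0.83 beside 0.02 for all tested genes. Over all tested genes 37.7% passed as lower and 38.3% as higher. The 7 include Mir22hg, a miRNA host kept in the same list. Snhg8 fell by 1.43, Epb41l4aos by 1.28 and Snhg6 by 1.14. Snhg17 rose by 1.39, Snhg18 by 0.95 and Snhg11 by 1.41, but Snhg11 was at 0.39 and did not pass without the IR libraries holding Y-linked reads (adjusted p = 0.504). Without those libraries 2 passed as higher and 8 as lower, against 34.1% and 34.2% of tested genes. A pyrimidine run as defined above was found in 2 of the 5 lower hosts with a RefSeq window, Snhg8 and the miRNA host Mir22hg. Among the 3 higher hosts with a window 1 had it, Snhg18, beside 21.2% of all genes with a window.

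**Figure D3:**
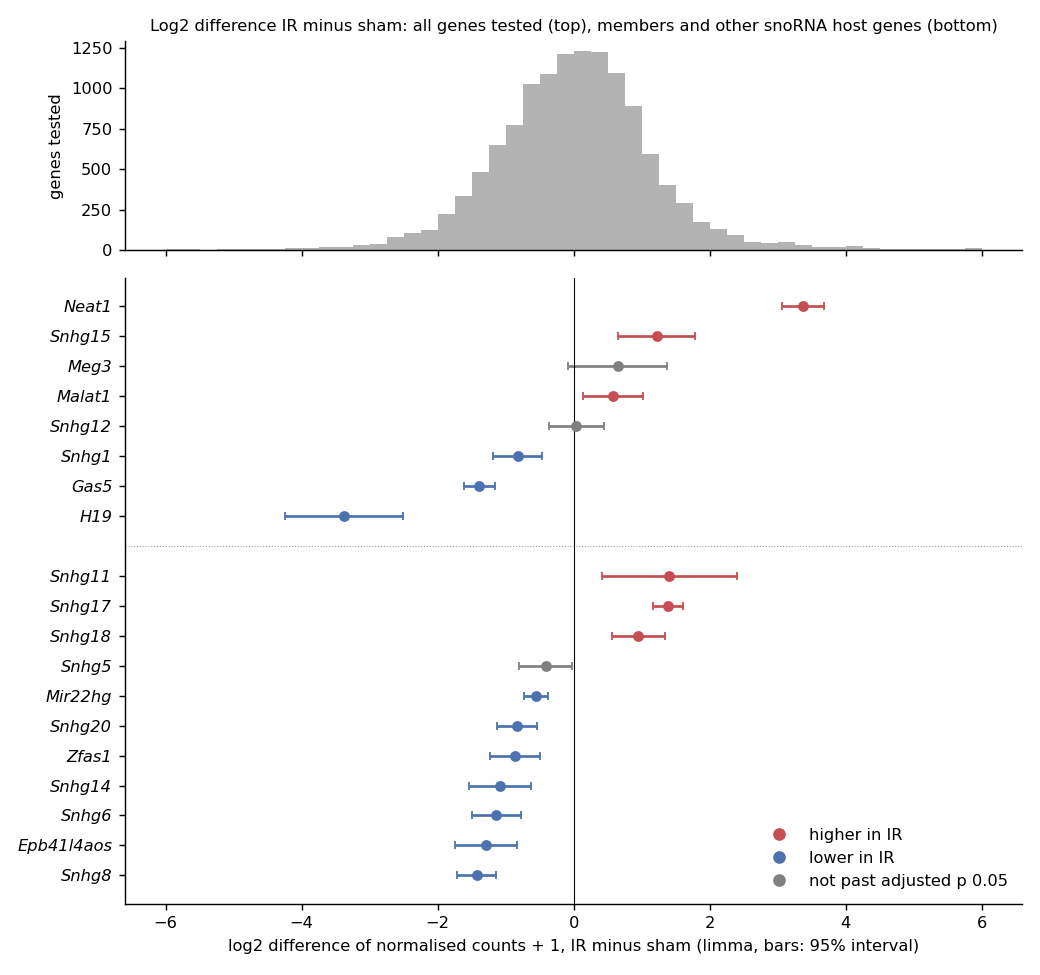
Log2 differences, IR minus sham, for all tested genes (grey histogram, values beyond 6 in either direction placed in the end bins) and, below, for the 8 lncRNAs and 11 other snoRNA hosts with 95% intervals from limma. Red had an adjusted p under 0.05 and was higher, blue was lower and grey did not pass, and H19 reached the filter through sham alone. Among snoRNA hosts, Gas5 at -1.39 lies near Snhg8 at -1.43, and Snhg15 at 1.22 near Snhg17 at 1.39.

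Proteins that make snoRNA particles or degrade host transcripts were listed alongside. Of 10 nonsense-mediated decay factors, 8 passed as higher and 0 as lower, and Upf3b and Smg1 did not pass. Over all tested genes 76.0% passed, 38.3% as higher. Upf1, the RNA helicase at the centre of this decay pathway, had a median of 1253 in IR and 457 in sham (log2 difference 1.43, limma adjusted p = 1.8e-11). Smg9 rose by 1.42 and Smg5 by 1.14, and the median over the 10 was 0.71. Without the IR libraries holding Y-linked reads 8 again passed, with Upf3b in place of Upf2, and 34.1% of all tested genes passed as higher. Of 8 core proteins of snoRNA particles, 4 passed as higher, including Gar1 at 1.24 and Nop56 at 0.93, and 2 as lower, Nop10 at -1.44 and Snu13 at -0.60, with a median of 0.24, and 3 and 2 passed without the IR libraries holding Y-linked reads.

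Within the IR group 4 of the 5 pairs of snoRNA hosts examined were correlated across libraries. How often other gene pairs reach such values in these libraries was not computed, so this count does not set the hosts apart. All pairs share library depth and normalisation. Gas5 and Snhg1 had Pearson r = 0.84 and Spearman rho = 0.87 across the 9 IR libraries (exact permutation p = 0.00484 and 0.00451, adjusted 0.0314 and 0.0241 over the 16 relations computed, 8 pairs in each surgery). For Gas5 and Snhg12 r was 0.78 and rho 0.83 (exact permutation p = 0.0135 and 0.00827, adjusted 0.0432 and 0.028). For Snhg1 and Snhg12 r was 0.83 and rho 0.90 (exact permutation p = 0.00651 and 0.00203, adjusted 0.0314 and 0.0162). Leaving out the 2 libraries farthest from the median of the first gene of each pair, these became 0.76, 0.85 and 0.88, and without IR5 and IR8 they were 0.89, 0.98 and 0.81. Within the 6 IR libraries with Y-linked reads they were 0.82, 0.71 and 0.87, and the 3 without are too few for a value. Snhg12 and Snhg15 had r = 0.81 and rho = 0.93 (exact permutation p = 0.00764 and 0.00075, adjusted 0.0314 and 0.012), but r was 0.57 without IR8 and IR9, so this relation rests in part on those libraries. It was 0.81 within the 6 libraries with Y-linked reads and 0.66 without IR5 and IR8. Gas5 and Snhg15 reached r = 0.67 and rho = 0.75 and did not pass the adjustment (exact permutation p = 0.0464 and 0.0255, adjusted 0.0992 and 0.068), and r was 0.46 within the 6 libraries with Y-linked reads. Snhg1 with Snhg15 was not examined.

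In sham none of the pairs passed the adjustment. The nearest was Gas5 with Snhg12, at r = 0.76 and rho = 0.62 (exact permutation p = 0.0208 and 0.0857, adjusted 0.0555 and 0.171). Snhg1 and Snhg12, tied in IR, had r = 0.24 and rho = -0.03 in sham (exact permutation p = 0.525 and 0.948). Whether a relation differs between surgeries was not tested, and the genotypes mixed within each group may add to the spread on which it rests.

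**Figure D4:**
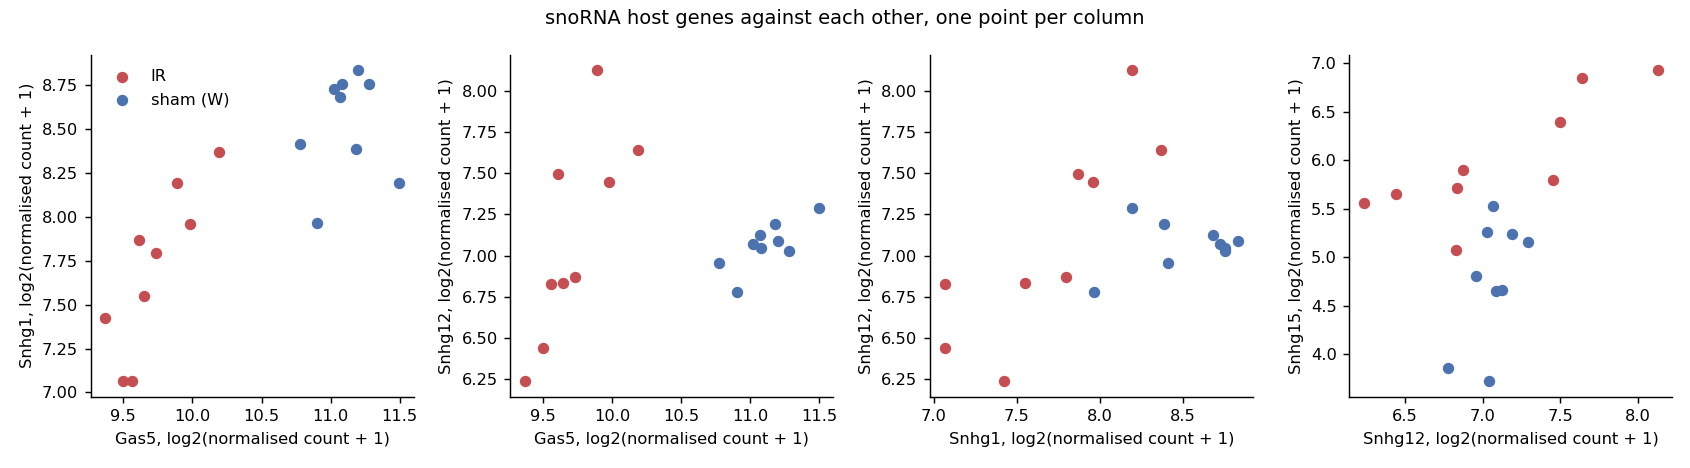
Pairs of snoRNA hosts on a log2(normalised count + 1) scale, 1 point per library, IR in red and sham in blue. From left to right the IR values of Pearson r are 0.84, 0.78, 0.83 and 0.81, and the sham points form tighter clusters along the Snhg12 axis.

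H19 was the most reduced of the 8, at low counts in both groups. H19 (ENSMUSG00000000031) is annotated at 142575529 to 142578143 on the minus strand of chromosome 7. It had 1.05, 0, 3.92, 2.04, 6.94, 5.51, 0, 2.98 and 0.859 normalised counts in IR1 to IR9, against 28.7, 54.1, 49.7, 28.3, 33.5, 24.9, 31.1, 8.78 and 23.7 in W1 to W9. No IR library reached the lowest sham library, which was W8. These are 26 reads over the 9 IR libraries and 267 over the 9 sham libraries. Means were 2.59 ± 2.46 in IR and 31.4 ± 13.6 in sham (SD, n = 9 each), a 12.1-fold higher mean in sham. The log2 difference was -3.38 (SE 0.41), and -2.92 without the IR libraries holding Y-linked reads. No test is read from it, because H19 reached the filter through its sham level alone. At such counts its size depends on the pseudocount, being -1.84 with a pseudocount of 8.

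The miRNA cut from H19 is miR-675, whose mature arms in RefSeq (GRCm38.p6, minus strand of chromosome 7) are shown because they are the known small RNA product of this transcript, with the seed, bases 2 to 8, in capitals:
mmu-miR-675-5p: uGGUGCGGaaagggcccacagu
mmu-miR-675-3p: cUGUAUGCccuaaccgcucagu
They lie at chr7:142577112-142577133 and chr7:142577078-142577099 and have different seeds. The miRNA gene was listed at 0 in every library.

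Meg3 was low and not called. Meg3 (ENSMUSG00000021268), at 109541001 to 109571726 on the plus strand of chromosome 12, ranged from 3.78 through 18.8 to 34.99 in IR and from 3.29 through 10.5 to 20.3 in sham. The groups overlapped, with 4 IR libraries above the highest sham library. Means were 17.99 ± 9.58 in IR and 10.5 ± 4.87 in sham (SD, n = 9 each), and the log2 difference was 0.65 (SE 0.35, 95% interval -0.08 to 1.38, limma adjusted p = 0.099). It passed with edgeR (0.77, adjusted p = 0.0478), with DESeq2 (0.79, adjusted p = 0.0384) and without IR2 (0.87, limma adjusted p = 0.0143). It did not pass without the IR libraries holding Y-linked reads (0.89, adjusted p = 0.0598), without IR5 and IR8 (0.40, adjusted p = 0.315) or with sample weights in limma (0.35, adjusted p = 0.374). H19 and Meg3 had r = 0.80 and rho = 0.83 across the IR libraries (exact permutation p = 0.00784 and 0.00875, adjusted 0.0314 and 0.028). The value of r was 0.62 without IR2 and IR7 and 0.76 within the 6 libraries with Y-linked reads. In sham r was 0.49 and rho -0.02 (exact permutation p = 0.19 and 0.982). The IR values rest on 0 to 8 reads of H19 per library, so no relation is read from them.

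The coding genes near the imprinted pair had few counts. Mrpl23, a mitochondrial ribosomal protein gene 34782 bases from H19, averaged 9.35 ± 4.5 in IR and 16.8 ± 4.83 in sham (SD, n = 9 each). It too reached the filter through sham alone. Igf2 averaged 6.86 ± 1.53 in IR and 7.39 ± 3.52 in sham, and Dlk1 averaged 0.274 ± 0.559 in IR and 0.95 ± 1.24 in sham (SD, n = 9 each), all under the filter. Across the sham libraries H19 and Igf2 had r = -0.64 and rho = -0.73 (exact permutation p = 0.0496 and 0.0311, adjusted 0.0992 and 0.0711), which did not pass. Of 10 genes of the imprinted gene network that averaged at least 10 in both surgeries, 2 passed as higher and 4 as lower, against 37.5% of such genes in each direction, with a median log2 difference of -0.20. The paternally expressed Peg3 rose by 1.33. Peg10, which reached the filter through IR alone, had a median of 18.04 in IR and 2.04 in sham. Slc38a4, an imprinted amino acid transporter, fell by 1.68, the cell cycle inhibitor Cdkn1c by 1.32 and Dcn by 1.09. The stellate cell and fibroblast markers, a list that includes Dcn, summed to 2502 to 3839 in IR and 4030 to 5129 in sham. Without Dcn the other 5 summed to 1400.0 to 2313 in IR and 1404 to 2234 in sham, which overlap. Of these, Col1a1 (3.26) and Col3a1 (0.56) passed as higher, and Lrat (-1.89), Reln (-1.03) and Rgs5 (-0.87) as lower. Over all tested genes 38.3% passed as higher and 37.7% as lower. Without the IR libraries holding Y-linked reads Col3a1 was at 0.02 and did not pass (limma adjusted p = 0.92). The part of these markers in the result was not tested.

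Other named lncRNAs were tested in 10 cases, of which 2 passed as higher and 5 as lower, against 38.3% and 37.7% of all tested genes. Without the IR libraries holding Y-linked reads 3 passed as higher and 3 as lower, with Xist and its X-linked neighbour Ftx (-0.24, adjusted p = 0.285) no longer passing. Kcnq1ot1, an imprinted antisense RNA, rose by 2.04 and Rpph1, the RNA of ribonuclease P, fell by 1.82. Xist, which silences an X chromosome in female cells, had a log2 difference of -5.16 (limma adjusted p = 0.00343) and moved with the Y-linked reads. It ranged from 0 to 964 in the 6 IR libraries with such reads, from 2312 to 4305 in the other 3 IR libraries and from 1751 to 5336 in sham. Without the 6 libraries the difference of Xist was -0.29 and did not pass (adjusted p = 0.37).

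**Figure D5:**
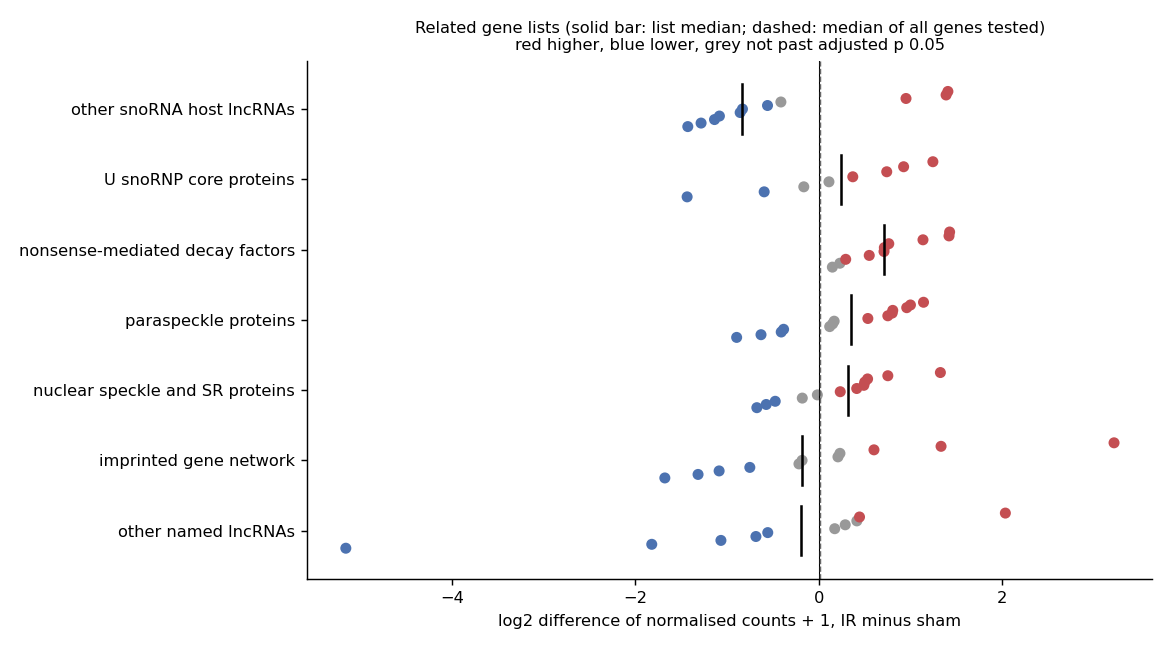
Log2 differences, IR minus sham, of the tested genes in 7 related lists, 1 point per gene, with the list median as a solid bar and the median of all tested genes (0.02) dashed. Red passed as higher, blue as lower and grey did not pass, and Peg10 (3.22) reached the filter through IR alone. Nonsense-mediated decay factors (median 0.71) and other snoRNA hosts (median -0.83) have medians on opposite sides of 0, and Xist at -5.16 is the outlying point of the lowest row.

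The order of the 8 by level changed between surgeries. Per kilobase of annotated exon, mean normalised counts in IR were 444 for Neat1, 334 for Malat1, 228 for Gas5, 72.8 for Snhg1, 61.6 for Snhg12, 49.9 for Snhg15, 1.05 for H19 and 0.995 for Meg3. In sham Gas5 led at 594, followed by Malat1 at 238, Snhg1 at 126, Snhg12 at 55.5, Neat1 at 42.1, Snhg15 at 20.8, H19 at 12.8 and Meg3 at 0.582. Neat1 thus had rank 1 of 8 in IR and rank 5 in sham, while Gas5 had rank 3 in IR and rank 1 in sham. Neighbours in these orders were not tested against each other. Exon lengths were taken over all annotated transcripts, 3760 bases for Gas5 and 20771 for Neat1, so levels and orders depend on the annotation. The Neat1 locus gives a short and a long isoform, which gene counts do not tell apart.

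As a description, the genes whose variation within the surgeries was most like each lncRNA were sought among up to 9855 genes averaging at least 50, over all 18 libraries after the mean of each surgery was subtracted. For Neat1 the nearest was Anapc4 (r = 0.78), for Malat1 Smc1a and Akap9 (0.90 each), and for Gas5 Naca and Pknox1 (0.84 each). Snhg1 was most like Cul3 (0.92), and Snhg12 most like 2410006H16Rik and Smad1 (0.96 each) and Klf6 (0.95). Snhg15 had Rbm15 at 0.86, H19 had Eif4ebp3 and Slc43a1 at 0.79, and Meg3 had Gpcpd1 at 0.80. These values were picked as the highest of many and share library depth and normalisation.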

How the data were processed

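The authors sequenced liver RNA prepared with a phenol-based reagent and a commercial library kit, per the labels' protocols. Per the submitters' processing notes, Trimmomatic 0.33, STAR 2.5.0a and DESeq2 1.14 were used with build GRCm38. The read counter, annotation and strand setting were not stated there. The deposited table holds a signal: by its name, read counts scaled by the authors with a DESeq2 size factor per column. In 17 of 18 columns 100% of values were whole multiples of 1 step, within 0.01 reads, which gave back the reads. In W1 the step was too near 1 for the automatic check, so count tests were also run without it. No per-sample column was left unused (0).

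Identifiers were matched to GENCODE vM21, 47224 of 47729. limma 3.58.1 with intensity trend was run on log2(value + 1) for genes averaging at least 10, with R 4.3.3. edgeR 4.0.16 and DESeq2 1.42.0 on recovered reads were alternatives. Fits were tested on simulated data in which 200 genes changed and all genes had the same dispersion. That is far fewer than were called here, so the simulation does not cover changes of this extent. Replicate header numbers did not pair libraries (r -0.10 to 0.12 between same-numbered columns). No duplicates were seen: the closest columns differed by a chi-square of 7.81 per degree of freedom. The labels do not say that replicates came from separate animals, so p-values measure the spread between these samples, genotypes included. Named genes were the 8 lncRNAs, up to 4 called genes of each related list by size of difference (others where a sentence needed them), nearest coding neighbours and up to 3 most alike genes; a few genes that this rule names are not reported here. The members and lists were chosen with earlier results of these data known.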

Additional observations from a re-analysis of the deposited data

Results flagged for a closer look

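In 3 of the 16 sets formed by 8 lncRNAs and 2 surgeries, 1 library stood apart from the other 8 on the log2 scale. The gap to its nearest neighbour, as a share of the whole range, was above the 95% critical value of Dixon's test. Chance alone flags about 1 in 20 sets. For Malat1 in IR the library IR8 was lowest, at 1549 normalised counts, with a gap of 0.532 of the range. For Malat1 in sham the library W8 was lowest, at 512, with a gap of 0.61. For H19 in sham W8 was again lowest, at 8.78, with a gap of 0.535. Without W8 the log2 difference of Malat1, IR minus sham, was 0.38 in place of 0.58, and that of H19 was -3.58 in place of -3.38.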

How the results depend on the processing

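Each of the 8 lncRNA differences was recomputed under 13 other settings and without each of the 18 libraries in turn. Neat1, Gas5, Snhg1 and Snhg15 kept direction and side of the threshold in all 31, and no called difference changed sign. H19 kept its direction in all 31, and no test is read from it because it reached the filter through sham alone. Leaving out 1 library gave 3.31 to 3.47 for Neat1, 0.38 to 0.66 for Malat1, -1.45 to -1.34 for Gas5 and 0.48 to 0.87 for Meg3. Malat1 was not called without the IR libraries holding Y-linked reads (0.74) or with edgeR without W1 (0.46), both added after seeing the data. Meg3 was called with edgeR (0.77) and DESeq2 (0.79), but not with edgeR without W1 (0.67). It was 0.35 with sample weights in limma and 0.40 without IR5 and IR8, which hold both Y-linked and Xist reads (added after seeing the data). Without IR2, at 3.78 the lowest IR library, it was called at 0.87. Snhg12 was never called and changed sign, between -0.16 and 0.16. H19 moved to -1.84 with a pseudocount of 8 and -3.76 with 0.5. Genes called numbered 4860 higher and 4781 lower, and 4329 to 6335 and 4344 to 5574 under the other settings, among them 4924 and 4767 with edgeR on recovered reads. With the header number as a replicate block Neat1 stayed at 3.38 and Malat1 at 0.58 (limma adjusted p = 0.002), and 4821 and 4751 genes were called. The numbers do not pair the libraries by design. Leaving out a library kept the difference of Neat1 relative to Malat1 between 2.69 and 2.95. H19 and Meg3 have few reads, which limits their precision. The causes of these shifts were not tested.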
